A study of Mus musculus with 10 samples.

Results

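The 46 genes described here code for the transcription factor NRF2 (Nfe2l2), its inhibitor KEAP1, and the thioredoxin, glutathione, peroxide and NADPH enzymes with which cells neutralise oxidants. They were listed by name, for what they do, among the 53379 genes of the deposited count files, with earlier results of these data known. Of the 46 genes, 44 had a mean of at least 10 reads per library and were tested together with all other genes above that limit, 11551 in total, while Nqo1 and Sod3 had too few reads. RNA-seq had been done on sorted cells of the Emx1+ lineage from neocortex of mouse embryos at embryonic day 16 (E16), in a mixed C57BL/6J, CD1 background. Each library came from 1 embryo and 400 cells, and the groups were 3 cKO-Cdkn1c-MADM-7 embryos (cKO) and 7 control MADM-7 embryos. All 10 embryos carried Emx1-Cre and both MADM cassettes of chromosome 7 (GT and TG), which label sparse cells of the lineage in green, red or both colours after recombination between the chromosome copies. In cKO embryos both copies also carried the Cdkn1c-flox allele, so the cell-cycle inhibitor Cdkn1c was removed wherever Emx1-Cre had been active, that is in dorsal forebrain progenitors and their progeny. Cells of all label colours were pooled within a library, and cells of both groups had been released with papain before sorting.

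In resting cells KEAP1 hands NRF2 to a ubiquitin ligase, and NRF2 is degraded. When oxidants or electrophiles modify cysteines of KEAP1, NRF2 accumulates, pairs with a small MAF protein and binds antioxidant response elements in front of its target genes, of which Nqo1, Hmox1, Gclc, Gclm, Txnrd1, Srxn1 and Gsr are common readouts. NRF2 is thus set largely at the level of the protein, which RNA-seq does not measure.

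Between 1738220 and 3362487 reads per library were counted on genes. Cdkn1c itself had 3.94 to 10.8 CPM (counts scaled to 1000000 reads per library, with TMM factors) in cKO and 67.5 to 131 CPM in controls. Markers of radial glia and projection neurons were all present in every library. Uniquely aligned reads outside genes divided the libraries into a set with a lower share (1 cKO, 4 controls) and a set with a higher share (2 cKO, 3 controls), with shares of 5.47% to 16.7% over all. Within each genotype no pair of libraries was alike to within counting error.

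Loss of Cdkn1c went with higher RNA of Nfe2l2, Hmox1 and Gpx3, and with no called change in the other 41 members tested. By edgeR's quasi-likelihood test, adjusted over all genes, 3 of 44 members were higher in cKO, against 2.27% of all genes tested, and 0 were lower, against 0.883%. The list was drawn up with earlier results of these data known, so such shares are background and no test of an excess. At an unadjusted p under 0.05 there were 5 higher and 2 lower members, where 9.25% and 7.11% of all genes were higher and lower. DESeq2 called 4 members higher and 1 lower, against 2.6% and 1.82% of all genes. By CPM, every cKO library lay above every control for 4 members (Nfe2l2, Hmox1, Gpx3 and Gpx1), where 3.32% of all genes did so, and below every control for 2 members (G6pdx and Idh1), where 2.68% did. The median log2 fold change of the 44 members was 0.09, and that of all genes tested was 0.01. Most members were measured closely: the median standard error (SE) was 0.17 on the log2 scale, compared with 0.27 over all genes, and the 95% interval lay within 1 log2 unit of 0 on both sides for 39 of 44 members, as it did for 63.1% of all genes.

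**Figure D1:**
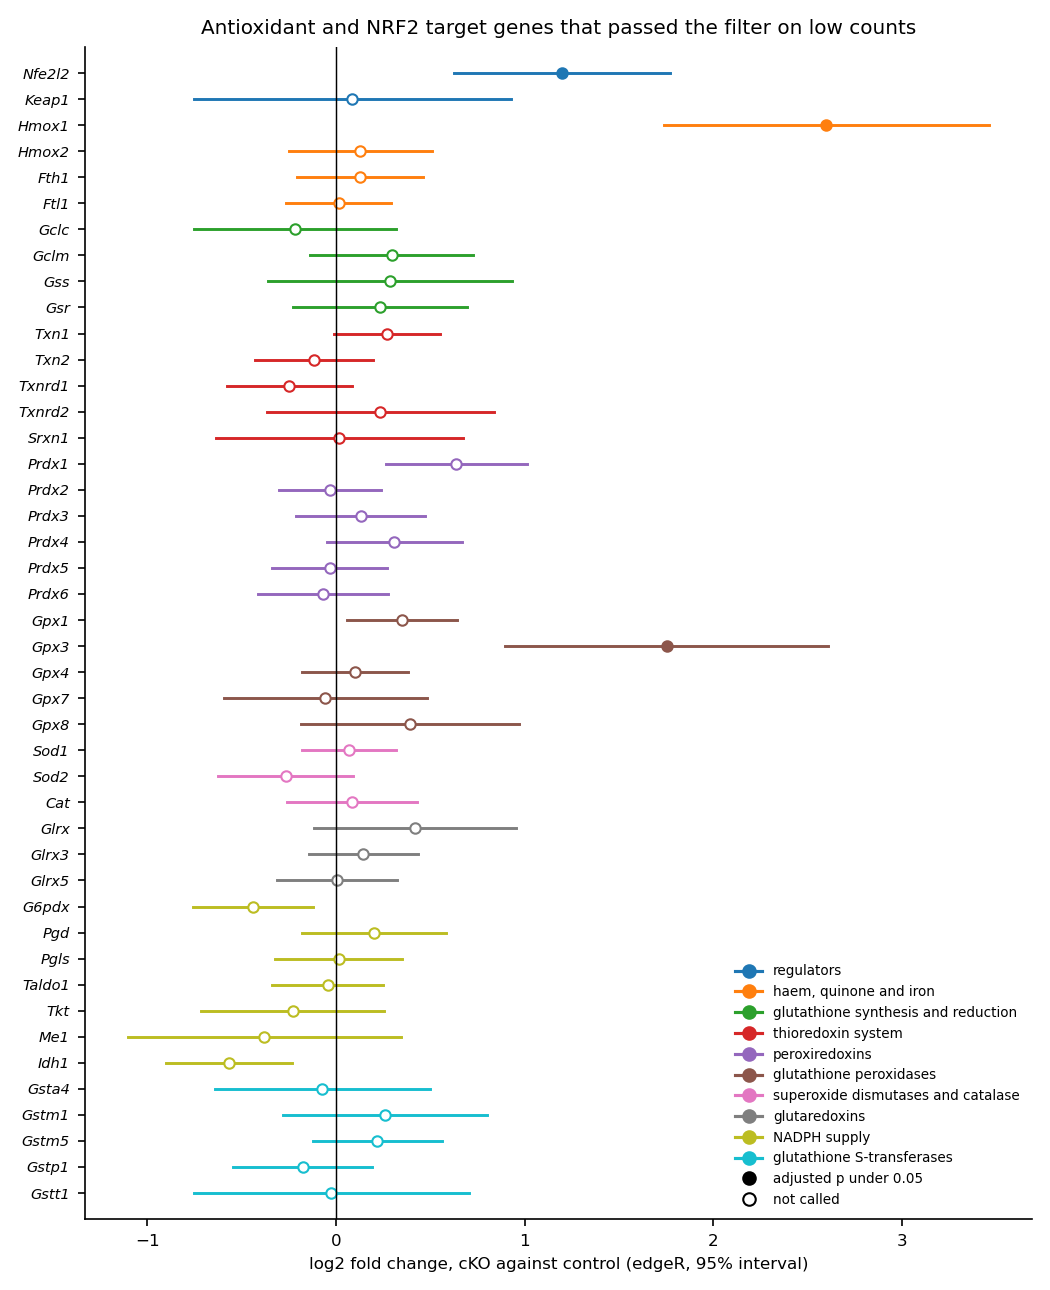
Log2 fold change (cKO against control, x axis) of each of the 44 members tested, with its 95% interval from edgeR. Colours mark the roles, filled points are members with an adjusted p under 0.05. Hmox1 (2.60), Gpx3 (1.75) and Nfe2l2 (1.20) lie far to the right, and the other members lie between -0.57 and 0.64.

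NRF2 target sites can be looked for in the sequence around the transcript starts of the genes. RefSeq windows of GRCm38.p6, running from 250 bases before to 50 bases after a transcript start, were at hand for 40 of the 46 members. The core of the antioxidant response element, TGACNNNGC, was searched on both strands (GCNNNGTCA on the other strand). It was found for 10 of 40 members (25.0%): Nfe2l2, Gclm, Txnrd1, Srxn1, Prdx1, Sod1, G6pdx, Pgd, Me1 and Gstm5. The same letters were found for 17.1% of 8858 tested genes and for 14.0% of all 27025 genes with a window. A gene was counted when any of its windows held the core: for Txnrd1 this was 1 of 3 windows and for Me1 and Pgd 1 of 2, and the other members with a match had 1 window each. The match lay after the transcript start in Srxn1 and Pgd and ran across it in Me1. A match describes the letters only and is not evidence of binding. A window without a match, as for Nqo1, does not show that a gene lacks an element, since sequence outside the windows was not searched. No window was at hand for Hmox1, Gclc, Gsr, Prdx6, Sod3 and Gsta4. The stretches below belong to the regulator itself, to a pair of common NRF2 readouts and, among members with a match, to those with the next largest differences. Capitals mark the matched core, and each stretch reads 5′ to 3′ on the strand of its gene.
Nfe2l2, chr2:75704875-75704913, minus strand: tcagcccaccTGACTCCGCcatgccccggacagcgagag
Prdx1, chr4:116685446-116685494, plus strand: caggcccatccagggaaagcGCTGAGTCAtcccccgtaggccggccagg
G6pdx, chrX:74428909-74428957, minus strand: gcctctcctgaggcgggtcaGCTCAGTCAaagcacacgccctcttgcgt
Gclm, chr3:122245403-122245451, plus strand: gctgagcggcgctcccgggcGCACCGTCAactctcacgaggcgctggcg
Txnrd1, chr10:82859094-82859142, plus strand: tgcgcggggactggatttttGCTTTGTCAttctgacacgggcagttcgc
The core began 240 bases before the transcript start in Nfe2l2, 133 in Prdx1, 57 in G6pdx, 134 in Gclm and 92 in Txnrd1, in each case from the start to which the window with the match belongs. The median log2 fold change was 0.13 for the 10 members with a match, of which 1 was called higher, and 0.09 for the 29 tested members with a window and no match, of which 1 was called higher.

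Levels were compared between genes per length (TPM, reads per base of merged exons scaled to 1000000 over all genes). In controls the most abundant member was Ftl1, the light chain of the iron store ferritin, with 2133 ± 173 TPM (SD, n = 7). Prdx2, a cytosolic peroxiredoxin, followed with 1636 ± 148 TPM (SD, n = 7), and cytosolic thioredoxin Txn1 had 853 ± 46.1 TPM (SD, n = 7). At the other end Hmox1 had 3.99 ± 2.77 TPM (SD, n = 7) and Nqo1 0.929 ± 1.32 TPM (SD, n = 7). The called members all came from the low end of this order, at rank 41 (Gpx3), 42 (Nfe2l2) and 44 (Hmox1) of 46. Summed over all 46 genes, the level was 10619 to 12041 TPM in controls, with a median of 11227, and 10819 to 12282 TPM in cKO, with a median of 11861, so the groups overlapped. Reads that fall on more than 1 gene had not been counted, and this lowers Ftl1 by a factor of 1.99, Hmox2 by 1.71, Txnrd2 by 1.65 and Keap1 by 1.44 compared with the sum of the strand-specific counts. Prdx5 (1.27), Gstm5 (1.26), Prdx2 (1.16) and Gss (1.14) are lowered less.

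**Figure D2:**
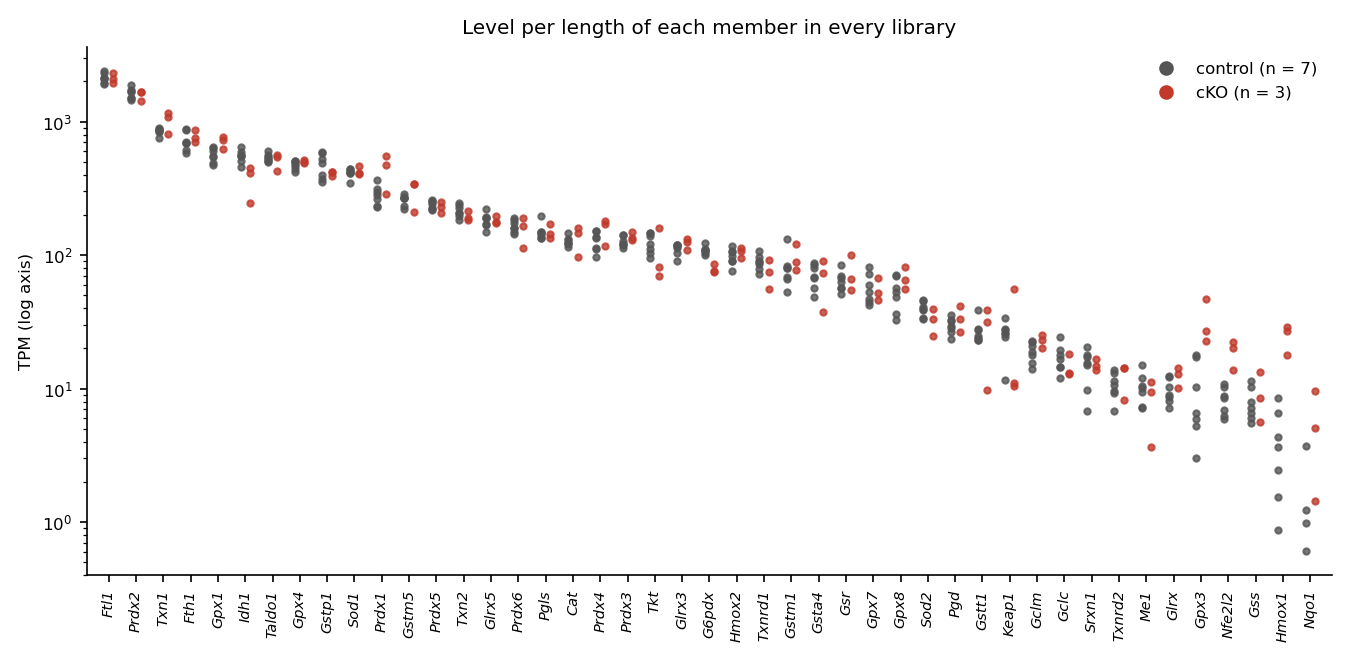
Level per length (TPM, log axis) of the 45 members with reads, 1 point per library, ordered by the control mean; libraries at 0 are not drawn. Controls (n = 7) are grey and cKO libraries (n = 3) red. Most members overlap between the groups, and the red points rise clear of the grey ones for Gpx3, Nfe2l2 and Hmox1 at the low end.

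Of the regulators, Nfe2l2 rose in cKO and Keap1 had no consistent direction. Nfe2l2 (ENSMUSG00000015839.6, chr2:75675513-75704641, minus strand) codes for NRF2. It had 20.2, 29.9 and 30.5 CPM in cKO replicates 1, 2 and 3 and 8.11 to 15.6 CPM in controls, with a median of 11.2. All cKO libraries were above all controls, with a log2 fold change of 1.20 (SE 0.27, 2.29-fold, adjusted p = 0.0205 from edgeR). Within the libraries with a lower share of reads outside genes, where cKO replicate 3 is the only cKO library, Nfe2l2 was 1.32 above the mean log2 CPM of 4 controls, and within the other set the difference in means was 1.21. The call depended on 2 cKO libraries: the adjusted p was 0.0647 without cKO replicate 2 and 0.0822 without cKO replicate 3, with log2 fold changes of 1.09 and 1.10. Over all 21 fits it ran from 0.00358 to 0.192, and Nfe2l2 was called in 18.

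Keap1 codes for the adaptor that presents NRF2 to its ligase. It had 101, 18.5 and 19.5 CPM in the cKO libraries and 21.0 to 62.9 CPM in controls, with a median of 45.0. Replicate 1 thus lay above all controls and the other cKO libraries below all of them. The log2 fold change was 0.09 (SE 0.40, adjusted p = 0.944 from edgeR), and its 95% interval ran from -0.75 to 0.93. It became -1.25 without cKO replicate 1 (adjusted p = 0.0518) and was -0.01 when the strand-specific counts were summed. Keap1 shares 510 exon bases with Gm16754, and reads there are missing from the count that ignores strand.

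Among the haem, quinone and iron genes, Hmox1 rose and the others showed no call. Hmox1 (ENSMUSG00000005413.8, chr8:75093621-75100589, plus strand) codes for haem oxygenase 1, the inducible enzyme that opens the haem ring. It had 19.6, 11.0 and 18.7 CPM in cKO and 0.582 to 5.69 CPM in controls, with a median of 2.52. The lowest cKO library was well above the highest control. Hmox1 had a log2 fold change of 2.60 (SE 0.41, 6.06-fold, adjusted p = 0.0011 from edgeR), the largest of the 44 members, and it rested on 182 reads over all libraries. The call was kept in all 21 fits, in which the log2 fold change ran from 2.43 to 2.90 and the adjusted p from 1.57e-07 to 0.0104. In the set with the lower share of reads outside genes, cKO replicate 3 alone was 2.30 above the controls in mean log2 CPM, and within the other set the difference in means was 3.67.

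Hmox2, the constitutive haem oxygenase, had 75.2 to 100.1 CPM in cKO and 60.6 to 102.9 CPM in controls (log2 fold change 0.13, 95% interval -0.25 to 0.51). Per length, Hmox1 made up 15.7% to 21.4% of the summed haem oxygenase RNA in cKO and 0.815% to 7.39% in controls, with Hmox2 counted too low as stated. The ferritin chains Fth1 and Ftl1 had log2 fold changes of 0.13 (95% interval -0.21 to 0.46) and 0.01 (95% interval -0.26 to 0.29). Nqo1, a quinone reductase and the classic NRF2 readout, had 35 reads in all and was not tested. It had 3.04, 0.788 and 5.94 CPM in cKO and 0 to 2.14 CPM in controls, with a median of 0.356, so that 1 cKO library lay inside the range of the controls. Without the filter on low counts Nqo1 was called higher in cKO (adjusted p = 0.0461 from edgeR), which was the one fit that included it.

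**Figure D3:**
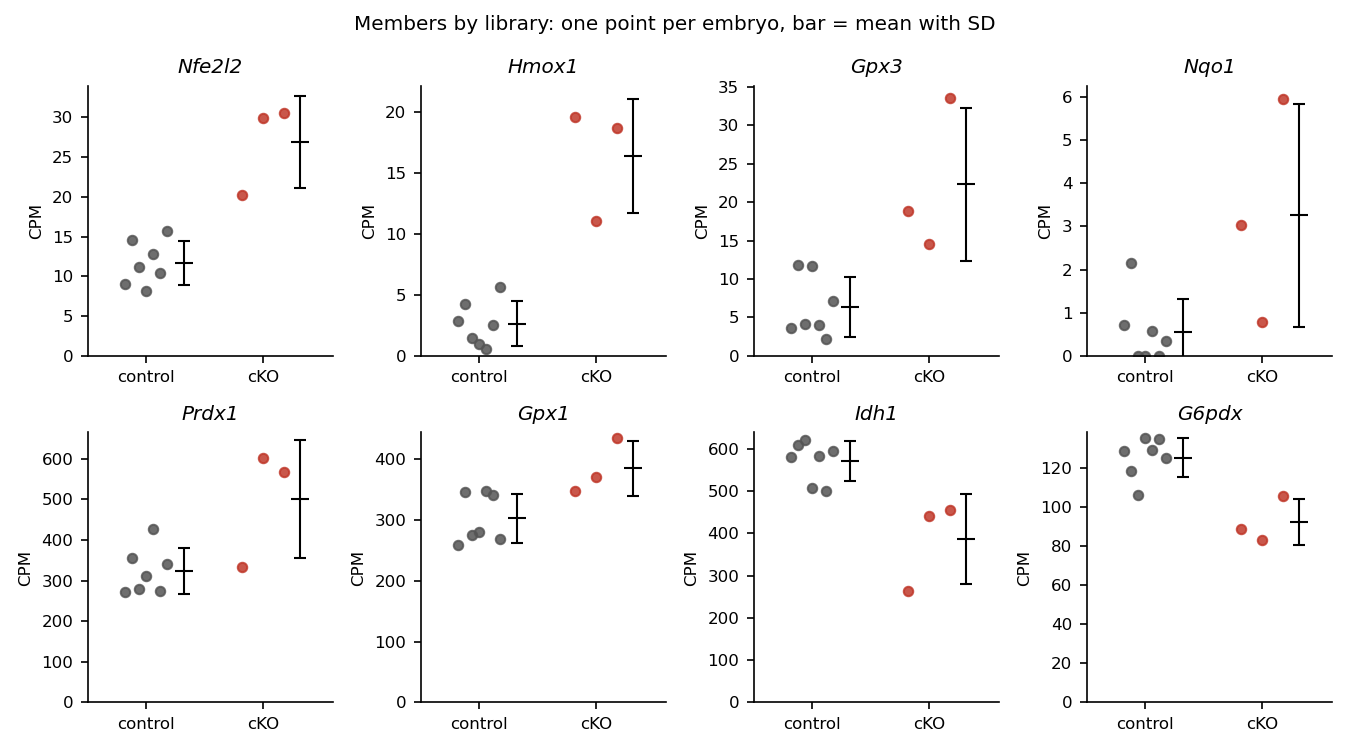
CPM (y axis, from 0) of 8 members in each library, 1 point per embryo, with the mean and SD of each group as a bar beside the points. Nfe2l2, Hmox1, Gpx3 and Gpx1 are higher in every cKO library than in any control, Idh1 and G6pdx lower, and Nqo1 and Prdx1 overlap through 1 cKO library each.

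None of the 4 genes that make and reduce glutathione was called by edgeR or DESeq2, and 0 had an unadjusted p under 0.05. Gclc, the catalytic subunit of glutamate-cysteine ligase, had 18.6, 24.4 and 19.5 CPM in cKO and 17.4 to 31.8 CPM in controls, with a median of 22.7. Gclm, the modifier subunit of the same enzyme, had 61.0, 45.3 and 57.3 CPM in cKO and 33.2 to 56.8 CPM in controls, with a median of 43.1. The groups overlapped for both, and the signs were opposite: the log2 fold change was -0.22 for Gclc (95% interval -0.75 to 0.32) and 0.29 for Gclm (95% interval -0.14 to 0.72). Gsr, which regenerates glutathione with NADPH, had 58.0, 64.2 and 110.3 CPM in cKO and 48.9 to 89.1 CPM in controls, with a median of 66.4. Replicate 3 alone exceeded the controls, and the log2 fold change of 0.23 (95% interval -0.23 to 0.69) became -0.10 without it. Gss, the glutathione synthetase, had a log2 fold change of 0.28 (95% interval -0.36 to 0.93).

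The thioredoxin system was likewise without a call in its 5 genes by either tool, with 0 at an unadjusted p under 0.05. Txnrd1, the cytosolic thioredoxin reductase, had 151, 233 and 210 CPM in cKO and 204 to 288 CPM in controls, with a median of 227. Srxn1, the sulfiredoxin that repairs overoxidised peroxiredoxins, had 14.8, 16.5 and 16.5 CPM in cKO and 7.26 to 20.0 CPM in controls, with a median of 17.3. Neither was separated between the groups. The log2 fold changes were -0.25 for Txnrd1 (95% interval -0.58 to 0.08) and 0.02 for Srxn1 (95% interval -0.64 to 0.67). Txn1 had 326, 436 and 449.7 CPM in cKO and 275 to 356 CPM in controls, with a median of 341. Its replicates 2 and 3 lay above the controls and replicate 1 did not, and the log2 fold change was 0.27 (95% interval -0.01 to 0.55). The mitochondrial pair Txn2 and Txnrd2 had log2 fold changes of -0.12 (95% interval -0.43 to 0.20) and 0.23 (95% interval -0.37 to 0.84).

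Of the 6 peroxiredoxins, thiol enzymes that reduce peroxides, 3 had log2 fold changes above 0 and 3 below, and 0 were called by edgeR. One of them, Prdx1, had an unadjusted p under 0.05. Prdx1 (ENSMUSG00000028691.12, chr4:116685544-116700822, plus strand), in whose upstream stretch shown above the core reads GCTGAGTCA, had 334, 601 and 566 CPM in cKO and 271 to 427 CPM in controls, with a median of 310. Replicates 2 and 3 were above every control, while replicate 1 fell among them. The log2 fold change was 0.64 (SE 0.18, adjusted p = 0.0622 from edgeR). DESeq2 called Prdx1 (adjusted p = 0.0341), and so did edgeR without cKO replicate 1 (log2 fold change 0.86, adjusted p = 0.0063). The call was made in 4 of 21 fits, with adjusted p from 0.00267 to 0.205. Prdx4, the peroxiredoxin of the endoplasmic reticulum, had 95.1, 134 and 142 CPM in cKO and 79.8 to 121 CPM in controls, with a median of 103. As for Prdx1, the overlap came from replicate 1, and the log2 fold change was 0.31 (95% interval -0.05 to 0.67). Prdx2, Prdx3, Prdx5 and Prdx6 had log2 fold changes between -0.07 and 0.13. Per length, Prdx2 was the main peroxiredoxin in both groups, with 60.3% to 67.5% of the family in controls and 57.0% to 61.3% in cKO.

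In the glutathione peroxidases Gpx3 rose. Gpx3 (ENSMUSG00000018339.11, chr11:54902453-54910377, plus strand) codes for the secreted form that is known from plasma. It had 18.9, 14.6 and 33.5 CPM in cKO and 2.16 to 11.8 CPM in controls, with a median of 4.12. All cKO libraries were above the controls, by a small margin in replicate 2. Gpx3 had a log2 fold change of 1.75 (SE 0.41, 3.37-fold, adjusted p = 0.0219 from edgeR). For Gpx3, too, the set with the lower share of reads outside genes holds cKO replicate 3 alone, which was 2.68 above the controls in mean log2 CPM, and within the other set the difference in means was 1.47. The adjusted p was 0.137 without cKO replicate 3 and 0.052 without control replicate 3, with log2 fold changes of 1.37 and 1.64. Gpx3 was called in 18 of 21 fits, and its adjusted p ran from 8.49e-05 to 0.137.

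Gpx1, the abundant cytosolic form, had 348, 371 and 434 CPM in cKO and 259 to 347 CPM in controls, with a median of 279. By CPM the cKO libraries were just above the controls, while per length cKO replicate 1, with 629 TPM, lay below control replicate 2, with 643 TPM. The difference was small, with a log2 fold change of 0.35 (SE 0.14, adjusted p = 0.209 from edgeR). Gpx4, which reduces lipid peroxides in membranes, had a log2 fold change of 0.10 (95% interval -0.18 to 0.38). Gpx7 and Gpx8, both of the endoplasmic reticulum, had -0.06 (95% interval -0.59 to 0.48) and 0.39 (95% interval -0.19 to 0.97). Gpx3 remained a minor part of the family, with 1.67% to 3.22% of the summed TPM in cKO and 0.253% to 1.63% in controls.

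Of the 3 tested enzymes that remove superoxide and hydrogen peroxide directly, 0 were called by edgeR or DESeq2 and 0 had an unadjusted p under 0.05. Sod1, the cytosolic superoxide dismutase, had 633 to 661 CPM in cKO and 525 to 672 CPM in controls (log2 fold change 0.07, 95% interval -0.18 to 0.32). Sod2, the mitochondrial form, had 94.8, 117 and 158 CPM in cKO and 130.3 to 176 CPM in controls (log2 fold change -0.27, 95% interval -0.62 to 0.09), so replicates 1 and 2 lay below every control. Catalase (Cat), the peroxisomal enzyme, had 97.8, 148 and 151 CPM in cKO and 108 to 143 CPM in controls. Replicate 1 was below every control and the other cKO libraries above, and the log2 fold change was 0.08 (95% interval -0.26 to 0.43). Sod3, the extracellular form, had 0 reads in every library, which allows up to 0.109 CPM over the 10 libraries together, counting error alone considered. Of the glutaredoxins, Glrx had 30.4, 25.2 and 22.1 CPM in cKO and 14.3 to 25.6 CPM in controls, with a median of 19.4. Glrx overlapped between the groups (log2 fold change 0.42, 95% interval -0.12 to 0.95). Glrx3 and Glrx5, which serve iron-sulfur clusters, had log2 fold changes of 0.14 (95% interval -0.14 to 0.43) and 0.00 (95% interval -0.32 to 0.32).

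NADPH feeds both the glutathione and the thioredoxin reductase. Of its 7 supply genes 5 had log2 fold changes below 0, as had 48.7% of all genes tested. By edgeR 0 were called, and 2 were lower at an unadjusted p under 0.05, against 7.11% of all genes, while DESeq2 called 1 lower, against 1.82%. Idh1 (ENSMUSG00000025950.16, chr1:65158616-65186500, minus strand), the cytosolic isocitrate dehydrogenase, had 263, 441 and 455 CPM in cKO and 499.9 to 621 CPM in controls, with a median of 583. Each cKO library was below each control, replicate 1 by the most. This gave a log2 fold change of -0.57 (SE 0.16, adjusted p = 0.0641 from edgeR), and Idh1 passed the threshold with DESeq2 (adjusted p = 0.0243) and without cKO replicate 2 (adjusted p = 0.0447). Without cKO replicate 1 it shrank to -0.35 (adjusted p = 0.186), and over 21 fits, of which 3 called it, the adjusted p ran from 0.00469 to 0.186. G6pdx (ENSMUSG00000031400.10, chrX:74409483-74429194, minus strand), the first enzyme of the pentose phosphate pathway, had 89.0, 83.1 and 105.6 CPM in cKO and 106.5 to 136 CPM in controls, with a median of 129. The highest cKO library nearly met the lowest control. The log2 fold change was -0.44 (SE 0.15, adjusted p = 0.137 from edgeR).

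Pgls and Pgd, the next enzymes of the oxidative branch, were not below the controls, with log2 fold changes of 0.01 (95% interval -0.32 to 0.35) and 0.20 (95% interval -0.18 to 0.58). Taldo1 and Tkt, which shuttle the sugars back to glycolysis, had -0.05 (95% interval -0.34 to 0.25) and -0.23 (95% interval -0.71 to 0.26). Malic enzyme (Me1) had few reads and a wide interval, with a log2 fold change of -0.38 (95% interval -1.10 to 0.35). The 5 glutathione S-transferases, which couple glutathione to electrophiles, had log2 fold changes between -0.18 (Gstp1) and 0.26 (Gstm1), and 0 were called, 0 had an unadjusted p under 0.05 and DESeq2 called 0. By the count that ignores strand, Gstp1 was the main transferase per length in both groups, with 42.7% to 59.2% of the family in controls and 39.8% to 55.7% in cKO. That count lowers Gstm5 by a factor of 1.26 and does not lower Gstp1, and their order was not checked with the summed strand-specific counts.

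Markers of several cell types moved with the genotype, and in bulk samples more cells of a type and more RNA per cell cannot be told apart. Summed markers of radial glia (0 of 8 called) and intermediate progenitors (0 of 4 called) overlapped between the groups. The sums were 1310 to 2500 and 506 to 538 CPM in cKO, against 1491 to 2519 and 345 to 815 CPM in controls. All 5 markers of Cajal-Retzius cells, the early reelin-secreting neurons, were called higher, with a summed level of 534 to 643 CPM in cKO and 16.3 to 161 CPM in controls. Of 6 projection neuron markers, 3 were called lower, with sums of 3937 to 5689 CPM in cKO and 6428 to 9077 CPM in controls. Interneuron markers summed to 36.6 to 103 CPM in cKO and 13.6 to 51.8 CPM in controls, with 1 of 6 called higher. The part of these shifts in the values of Nfe2l2, Hmox1 and Gpx3 was not tested, and genotype and cell composition cannot be told apart in these libraries.

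Hmox1 is also known from macrophages and from cells that meet haemoglobin. Microglia markers, of which none of 5 was tested, summed to 3.71, 0.788 and 27.2 CPM in cKO replicates 1, 2 and 3 and to 0 to 4.68 CPM in controls, with reads on 3, 2 and 5 of the markers in the cKO libraries and on 0 to 3 in controls. Cx3cr1, C1qa and Csf1r were highest in cKO replicate 3, with 5.52, 8.91 and 10.6 CPM, whereas Aif1 reached 4.32 CPM in controls and 1.69 CPM in cKO, and P2ry12 1.47 and 1.27 CPM. Hmox1 had 19.6, 11.0 and 18.7 CPM in the same cKO libraries. Globin and Alas2 reads of erythroid cells summed to 2301, 34.7 and 20.4 CPM in cKO. Control replicates 2 and 5 also had high erythroid sums, 1499 and 1817 CPM, and their Hmox1 levels were 4.28 and 0.582 CPM. The part of microglial and erythroid reads in the Hmox1 values was not tested. Choroid plexus markers (3 genes) summed to 34.4, 7.49 and 58.6 CPM in cKO and 0 to 22.5 CPM in controls, and Ttr made up most of the cKO sums with 32.4, 5.52 and 54.7 CPM. Pericyte markers (3 genes) summed to 6.07, 3.94 and 11.5 CPM in cKO and 2.13 to 5.82 CPM in controls. Endothelial markers (5 genes) reached 18.1 CPM in cKO replicate 2 and 0 to 2.91 CPM in controls, and meningeal markers (4 genes) summed to 23.9 to 41.0 CPM in cKO and 8.75 to 29.6 CPM in controls, of which Dcn alone was 81.4% to 97.6% in every library. The cells had been sorted by MADM label, which needs Emx1-Cre, a gate not meant to keep cells of these other lineages. The part of choroid plexus, pericyte, endothelial and meningeal reads in the Gpx3 result was not tested.

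**Figure D4:**
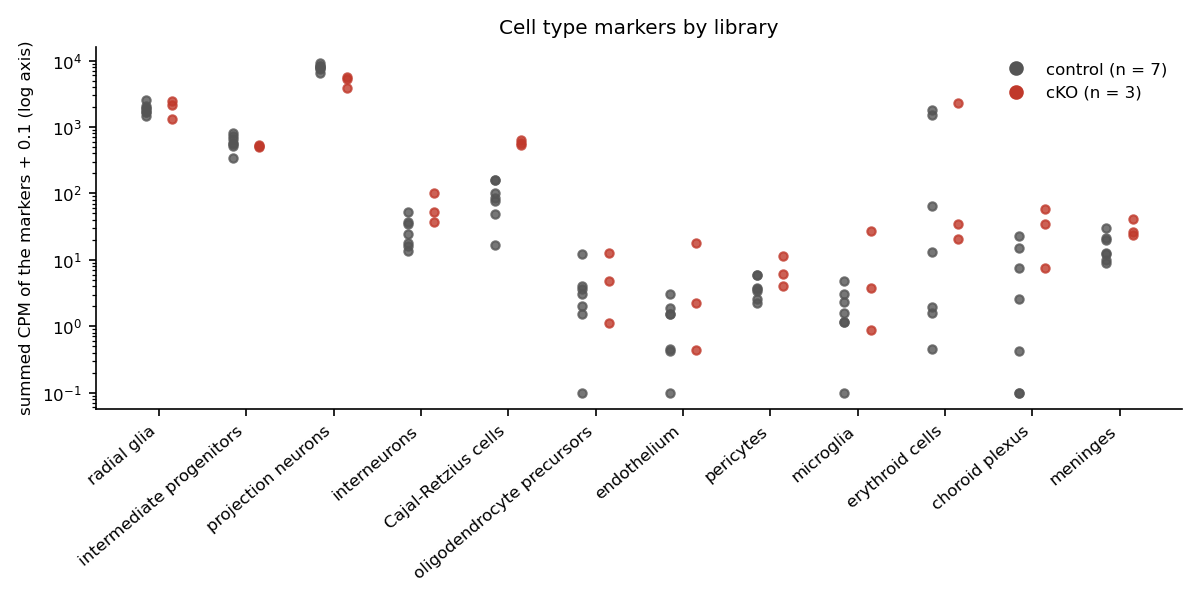
Summed CPM of the markers of each cell type (plus 0.1, log axis), 1 point per library, controls grey and cKO red. Cajal-Retzius markers are higher and projection neuron markers lower in all cKO libraries, and the choroid plexus sum is above every control in 2 of 3 cKO libraries. The highest microglial and endothelial sums are each from 1 cKO library, and erythroid sums are high in libraries of both groups.

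A list of 59 further genes of the same pathways was tested alongside, and 50 of them passed the filter. This list, too, was drawn up with earlier results of these data known, so its counts are no test of an excess. By edgeR 3 of the 50 were higher in cKO and 0 were lower, where 2.27% and 0.883% of all genes were. At an unadjusted p under 0.05 there were 10 higher and 4 lower, against 9.25% and 7.11% of all genes, and by DESeq2 3 higher and 1 lower, against 2.6% and 1.82%. The median log2 fold change was 0.09, the same as for the members. None of the 7 tested regulators around NRF2 and KEAP1 was called: Nfe2l1, Bach1, Mafg, Mafk, Cul3, Rbx1 and Sqstm1 had log2 fold changes between -0.22 and 0.33, 0 of them had an unadjusted p under 0.05 and DESeq2 called 0. Bach1 codes for the repressor that competes with NRF2 at Hmox1, and it had 0.12 (SE 0.28).

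Of the called genes of the wider list, Chac1, which cleaves glutathione, had 118, 48.5 and 49.6 CPM in cKO and 1.75 to 5.33 CPM in controls, with a median of 3.96 (log2 fold change 4.21, SE 0.35, adjusted p = 3.35e-06 from edgeR). Mthfd2, a mitochondrial folate enzyme, had 78.9, 74.5 and 115.8 CPM in cKO and 26.1 to 47.1 CPM in controls, with a median of 31.3 (log2 fold change 1.42, SE 0.20, adjusted p = 0.000565 from edgeR). Slc3a2, the heavy chain shared by several amino acid exchangers, had 472, 258 and 266 CPM in cKO and 146 to 214 CPM in controls, with a median of 175 (log2 fold change 0.94, SE 0.17, adjusted p = 0.00504 from edgeR). Slc3a2 was not called with the replicate number as a block (adjusted p = 0.0767 from edgeR), and Chac1 and Mthfd2 were. The difference in Slc3a2 leaned on cKO replicate 1, without which the log2 fold change was 0.59 (adjusted p = 0.0372 from edgeR). By CPM 5 of the 50 genes lay above every control in every cKO library (Chac1, Mthfd2, Slc3a2, Selenot and Mgst1), against 3.32% of all genes, and 2 lay below (Ggct and Msra), against 2.68%. Slc7a11, the cystine carrier that pairs with Slc3a2 and is itself an NRF2 target, had 5.40, 10.6 and 6.36 CPM in cKO and 1.75 to 151 CPM in controls, with a median of 2.35. The range of the controls came from replicates 4 and 7, with 121 and 151 CPM, while the other 5 controls had at most 2.88 CPM, less than any cKO library. The fitted log2 fold change was -2.50 (SE 1.38, adjusted p = 0.393 from edgeR). It became 1.78 (adjusted p = 0.369) with the replicate number as a block, in which controls 4 to 7 have no cKO partner, and without the filter on low counts edgeR called Slc7a11 lower (adjusted p = 1.57e-09).

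**Figure D5:**
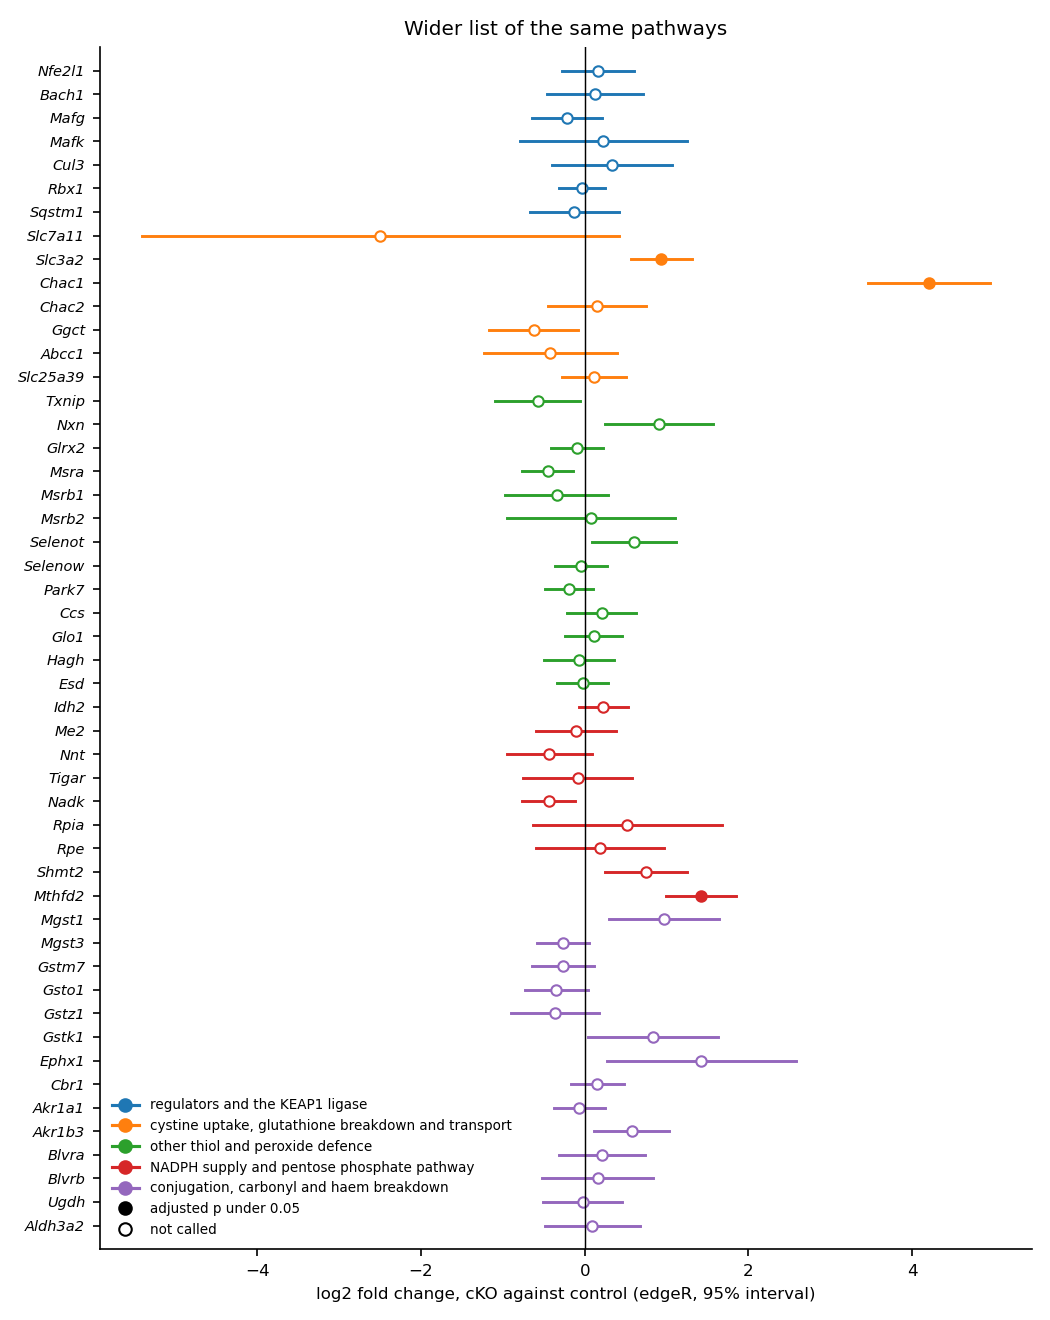
Log2 fold change (cKO against control, x axis) with 95% interval from edgeR for the 50 tested genes of the wider list, coloured by role; filled points have an adjusted p under 0.05. Chac1 (4.21), Mthfd2 (1.42) and Slc3a2 (0.94) are called, and Slc7a11 (-2.50) has by far the widest interval.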

How the data were processed

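The authors sorted 400 cells per embryo, made Smart-Seq2 libraries without described molecular identifiers, aligned reads to GRCm38 (mm10) with STAR 2.5.0c per the submitters' processing notes, which also name bedtools 2.26.0, and deposited raw counts of uniquely aligned reads per gene, in 1 column that ignores strand and 2 that are strand-specific. Counting single alignments alone can lower genes with near-identical copies, as may hold for Fth1, Ftl1, Txn1, Prdx1, Gpx4, Gstm1 and Gstp1. The size of that loss was not measured. Gene symbols came from GENCODE M21, in which 105 genes had no match. The column that ignores strand was used, since 50.3% to 50.5% of the strand-specific reads were sense. Reads outside genes (5.47% to 16.7%) and on several genes (4.45% to 5.40%) stayed out of all totals.

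Genes averaging 10 or more reads per library were fitted with edgeR 4.0.16 in R 4.3.3 (TMM, glmQLFit, glmQLFTest, genotype alone), and Benjamini-Hochberg adjusted p-values under 0.05 were called. Standard errors and 95% intervals came from the F statistic. The procedure was checked on simulated data. DESeq2 1.42.0 and the other alternatives are given in the closing section. Over 24 pairs of libraries of the same genotype, chi-square per degree of freedom was 4.91 to 23.7. Figures were drawn with matplotlib 3.10.9.

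The members and all lists were chosen with earlier results of these data known. Library values are given for called members, Nfe2l2, Keap1, the NRF2 readouts and the next members by p, and those of Sod2 and Cat were added after they were seen. From the wider list, called genes and Slc7a11 are named; Bach1, the other regulators, Selenot, Mgst1, Ggct and Msra were named after their values were seen. The columns hold reads, not molecules, so the limit given for a gene without reads does not cover amplification.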

Additional observations from a re-analysis of the deposited data

Results flagged for a closer look

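In 3 members 1 control library stood apart from the other 6, in that the gap to its nearest neighbour took up an unusually large share of the range of the controls on the log2 CPM scale. Txn1 was low in control replicate 3, with 275 CPM against 334 to 356 CPM in the others and a gap share of 0.753. Keap1 was low in control replicate 5, with 21.0 CPM against 40.9 to 62.9 CPM and a gap share of 0.604. Gstt1 was high in control replicate 5, with 22.7 CPM against 12.6 to 16.1 CPM and a gap share of 0.595. Chance alone flags about 1 in 20 such groups, and the 44 tested members were looked at. Control replicate 5 was also the shallowest library, with 1738220 reads on genes.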

How the results depend on the processing

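The choice of scaling (DESeq2 or upper-quartile factors, or library totals), filterByExpr, summed strand columns, a covariate for reads outside genes and robust dispersion each left 3 members higher and 0 lower, and the same 3 genes were called each time. DESeq2's own test called 4 members higher and 1 lower, and 1 wider gene lower. Without a filter there were 5 members higher and 1 lower, 5 wider genes higher and 1 lower, and 961 genes called in all, against 364. With the replicate number as a replicate block, 1 member (Hmox1) stayed called and 213 genes in all, with adjusted p of 0.192 for Nfe2l2 and 0.059 for Gpx3, while Chac1 and Mthfd2 of the wider genes stayed called and Slc3a2 did not (adjusted p = 0.0767); the numbers did not pair the libraries, as correlations of same-numbered libraries were 0.02, -0.12 and -0.19. With each library left out in turn, 1 to 4 members were higher and 0 to 1 lower, 3 to 4 wider genes were higher and 0 lower, and 271 to 424 genes were called. The low count of 1 came without cKO replicate 3. The median of the members ran from 0.03 to 0.13 in all settings. Among the 16 members followed singly through the settings, the sign of the log2 fold change turned for Keap1 with summed strand columns (-0.0131) and with the replicate block (-0.24), and for Srxn1 with the covariate (-0.0043). With libraries left out in turn it ran from -1.25 (without cKO replicate 1) to 0.45 for Keap1, from -0.11 (without control replicate 1) to 0.093 for Srxn1 and from -0.10 (without cKO replicate 3) to 0.41 for Gsr. Within the sets by share of reads outside genes, the difference in mean log2 CPM of Keap1 was -1.37 (lower share, 1 cKO library) and 0.36 (higher share). For Gsr these differences were 0.77 and -0.12. The cause was not tested. Depth limits Nqo1, Hmox1 and Gpx3 most, which after Sod3 have the fewest reads.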

Other observations

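The cKO libraries differed among themselves over the members. Of the 44 members tested, cKO replicate 1 had 12 above every control and 10 below, replicate 2 had 9 above and 8 below, and replicate 3 had 15 above and 4 below. Over all genes tested, 23.1%, 20.9% and 18.8% were above every control in replicates 1, 2 and 3, and 23.4%, 21.3% and 16.5% below, compared with 27.3%, 20.5% and 34.1% of the members above and 22.7%, 18.2% and 9.09% below. Replicate 1 was the highest or lowest of the cKO libraries for 37 members (84.1%), as it was for 72.7% of all genes tested. Txn1, Prdx1, Prdx4, Cat and Gstm5 were above every control in replicates 2 and 3 but not in replicate 1, where Cat and Gstm5 lay below every control. Keap1 and Tkt had the reverse order, above every control in replicate 1 and below in the others. Over controls, the coefficient of variation of the 44 tested members ran from 7.59% (Gstm5) to 70.2% (Hmox1), with a median of 16.8%, where the median of all genes tested was 23.2%; the members also had more reads, a median of 327 per library compared with 92.6. These genes were named after their values were seen.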
